A study of Mus musculus with 28 samples.

Results

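The 3 metallothionein genes *Mt1*, *Mt2* and *Mt3* and 7 antioxidant enzyme genes, *Hmox1*, *Nqo1*, *Gclc*, *Gclm*, *Txnrd1*, *Sod1* and *Sod2*, were followed in the amygdala of alcohol drinking female mice. These 10 genes were taken by name. All 10 were in both count tables and passed the filter on low counts, which left 16266 genes of the 49477 that the tables share. *Mt1* is also among the genes that the study picked from these mice, so its own difference is not independent evidence.

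RNA from micropunches of the whole amygdala was sequenced from 28 adult female mice of strain C57BL/6J (C57BL6/J in the labels), all of them unmodified and housed alone. Water mice (n = 10) drank water from both tubes throughout. Acute mice (n = 9) also drank water until the last drinking day, when 1 tube held 20% ethanol, and Chronic mice (n = 9) chose between 20% ethanol and water every other day over the same weeks. The mice came in 2 batches, with 4 Water, 4 Acute and 3 Chronic mice in the first and 6, 5 and 6 in the second. Punches hold many cell types, so fewer cells of a type and less RNA per cell cannot be told apart here.

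Total counts per mouse ran from 20004380 to 22569562 and their ranges overlapped between the groups. All 10 amygdala markers looked for were measured, with a summed level of 2411 to 3077 CPM per mouse (CPM is the count scaled to the normalized library size). Markers of choroid plexus and ependyma, which line the neighbouring ventricle, summed to between 540 and 4422 CPM in the first batch and between 30.7 and 2203 CPM in the second. Marker sums of the 3 drinking groups overlapped within each batch for these ventricular cells.

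Metallothioneins are small cysteine-rich proteins that bind zinc and copper and can quench reactive oxygen. In many tissues *Mt1* and *Mt2* are switched on by zinc, through the factor MTF1 at short metal response elements, and by glucocorticoids, while *Mt3* is best known from the brain. The enzymes remove heme, quinones, oxidized thioredoxin and superoxide or make glutathione, and several are targets of NRF2, which KEAP1 holds in check until oxidants or electrophiles act on it.

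The metallothionein genes lie close together on chromosome 8 of the GRCm38 build, all on the forward strand. *Mt3* (ENSMUSG00000031760) spans 94152607 to 94154146, *Mt2* (ENSMUSG00000031762) spans 94172664 to 94173568 and *Mt1* (ENSMUSG00000031765) spans 94179082 to 94180327. *Mt2* ends 5513 bases before *Mt1* begins. Their promoters are shown because the metallothioneins are induced through short elements that can be read in them. Each sequence runs from 250 bases before the RefSeq start to 30 bases after it on GRCm38.p6, 5′ to 3′, and capitals mark the metal response core, searched as TGCACNC or TGCGCNC on both strands.
Mt1 promoter, chr8:94178839-94179118, forward strand: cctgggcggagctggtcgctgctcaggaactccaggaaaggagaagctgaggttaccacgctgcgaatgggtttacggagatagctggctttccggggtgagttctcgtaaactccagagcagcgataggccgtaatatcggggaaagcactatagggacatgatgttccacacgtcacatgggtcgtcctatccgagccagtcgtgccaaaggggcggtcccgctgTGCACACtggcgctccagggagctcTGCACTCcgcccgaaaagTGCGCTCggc
Mt2 promoter, chr8:94172368-94172647, forward strand: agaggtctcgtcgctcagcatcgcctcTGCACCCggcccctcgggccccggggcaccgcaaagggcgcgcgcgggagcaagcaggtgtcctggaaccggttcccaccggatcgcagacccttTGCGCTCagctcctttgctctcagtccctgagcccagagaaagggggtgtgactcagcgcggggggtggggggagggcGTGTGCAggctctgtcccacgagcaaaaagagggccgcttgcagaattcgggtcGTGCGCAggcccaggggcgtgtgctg
Mt3 promoter, chr8:94152357-94152636, forward strand: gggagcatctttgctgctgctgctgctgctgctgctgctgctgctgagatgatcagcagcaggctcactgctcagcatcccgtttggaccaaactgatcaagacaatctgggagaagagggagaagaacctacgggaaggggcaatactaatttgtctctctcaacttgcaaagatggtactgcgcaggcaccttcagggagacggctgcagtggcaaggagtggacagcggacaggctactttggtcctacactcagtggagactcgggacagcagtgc
The core occurred 3 times in the *Mt1* promoter, from positions -23, 2 and 20 relative to the RefSeq start used here. *Mt1* has 3 transcripts in GENCODE M21, and cores outside these 300 bases or near another start were not searched for. In the *Mt2* promoter the core occurred 4 times, from -223, -128, -50 and 4, and the matches at -50 and 4 lay on the reverse strand. *Mt3* held 1 match, from position 27, which runs past the shown stretch. Of 32851 RefSeq promoters of the same 300 bases (250 before and 50 after the start), 25.7% held at least 1 such core and 0.517% held 4 or more. RefSeq promoters were matched for 8 of the 10 genes, not for *Hmox1* and *Gclc*. Among the enzymes, the window of *Gclm* held 3 metal response cores. The antioxidant response core, searched as TGACNNNGC on both strands, lay in the windows of *Mt2*, *Gclm*, *Sod1* and 1 of the 3 *Txnrd1* promoters, and in 12.4% of all promoters.

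Levels of different genes were compared per kilobase of transcript in the 10 Water mice, with a single transcript per gene (the principal one of the annotation, or else the longest). The order depends on this choice, as *Sod2*, divided by 5.861 kilobases, had the highest CPM before division (161 to 187). *Sod1*, the cytosolic superoxide dismutase, came first with 173 ± 11.8 CPM per kilobase (SD, n = 10). The metallothioneins followed, with 166 ± 26.4 CPM per kilobase for *Mt3*, 139.9 ± 11.6 for *Mt1* and 94.2 ± 10.7 for *Mt2*. *Mt3* led in the first batch (193 ± 9.16, n = 4) and was second to *Sod1* in the second batch (147 ± 13.5, n = 6). The ranges of *Sod1* and *Mt3* overlapped between mice in each batch, and those of *Mt1* and *Mt2* did not overlap. *Mt3* lay apart from *Mt1* in the first batch (183 to 205 against 124 to 134 CPM per kilobase), and both were level in the second (130 to 165 against 128 to 152). The mitochondrial superoxide dismutase *Sod2* reached 29.1 ± 1.32 CPM per kilobase, and the 2 subunits of glutamate-cysteine ligase, which makes the first step of glutathione synthesis, reached 18.3 ± 1.03 (catalytic *Gclc*) and 9.29 ± 0.348 (modifier *Gclm*). Thioredoxin reductase 1 (*Txnrd1*) lay between those subunits at 14.4 ± 0.978. The inducible enzymes were the lowest, with 2.25 ± 0.363 CPM per kilobase for *Hmox1*, which degrades heme, and 2.16 ± 1.17 for *Nqo1*, which reduces quinones. Their order turned between the batches, with 3.26 ± 1.11 for *Nqo1* and 2.42 ± 0.449 for *Hmox1* in the first, where the ranges overlapped, and 1.42 ± 0.293 and 2.14 ± 0.283 in the second, where they did not.

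None of the 10 genes changed with drinking at an adjusted p under 0.05 in edgeR's quasi-likelihood test, which was fitted over all genes with batch among its terms. This was so for Acute against Water (0.0% of all genes tested were called), for Chronic against Water (0.0184%, 3 genes) and for Chronic against Acute (0.0%). At an unadjusted p below 0.05, *Mt1* alone of the 10 was higher in Acute and again alone in Chronic mice, beside 5.07% and 4.81% of all genes higher, and no gene of the 10 was lower (4.45% and 5.65% of all genes). Chronic against Acute, none was higher (1.95% of all genes) or lower (2.5%). The median log2 fold change of the 10 genes was 0.02 in Acute and 0.04 in Chronic mice, against 0.00 for all genes in both. The 95% intervals of these log2 fold changes reached between 0.05 and 0.40 to either side, so that the data bound most enzymes tightly and *Nqo1* loosely.

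*Mt1* lay above the mean of the Water mice of its batch in all but 1 of the drinking mice. In the first batch the 4 Water mice measured 69.7, 68.3, 73.3 and 73.2 CPM, the 4 Acute mice 88.7, 80.9, 87.9 and 83.7 CPM, and the 3 Chronic mice 83.8, 79.7 and 85.0 CPM. All drinking mice of that batch lay above all its Water mice, as was the case for 2.25% of all genes in Acute and 2.24% in Chronic mice. In the second batch the 6 Water mice ran from 70.2 to 83.6 CPM (median 82.5), the 5 Acute mice measured 83.4, 87.7, 93.4, 89.7 and 87.1 CPM, and the 6 Chronic mice ran from 75.1 to 106 CPM (median 84.8). The groups overlapped there, as they did for nearly all genes (0.203% lay higher without overlap in Acute and 0.387% in Chronic mice). Of the 5 Acute mice 4 lay above every Water mouse, while the Chronic mice spread over the whole range, 2 of them at 105 and 106 CPM and 3 below the Water median, at 75.1, 80.9 and 81.1 CPM.

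The log2 fold change of *Mt1* was 0.19 in Acute mice (SE 0.0515, 95% interval 0.08 to 0.29, a 1.14-fold higher level), with an edgeR p of 0.00109 that rose to 0.348 after adjustment over all genes. All 9 Acute mice lay above the Water mean of their batch, and the exact permutation test within batches gave p = 9.28e-05 (two-sided, 32340 regroupings). In Chronic mice the log2 fold change was 0.18 (SE 0.0514, 95% interval 0.07 to 0.28, 1.13-fold), with an edgeR p of 0.00163, an adjusted p of 0.222, and 8 of 9 mice above the Water mean. The exact permutation p was 0.0124. Both comparisons share the Water mice. These exact p-values are not adjusted for the number of genes, and *Mt1* was picked from these same mice. For the other 9 genes the smallest exact permutation p against Water was 0.139, for *Mt3* in Chronic mice. Chronic against Acute, *Mt1* differed by a log2 fold change of -0.008 with a 95% interval of -0.12 to 0.10 (edgeR adjusted p = 0.999).

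**Figure D1:**
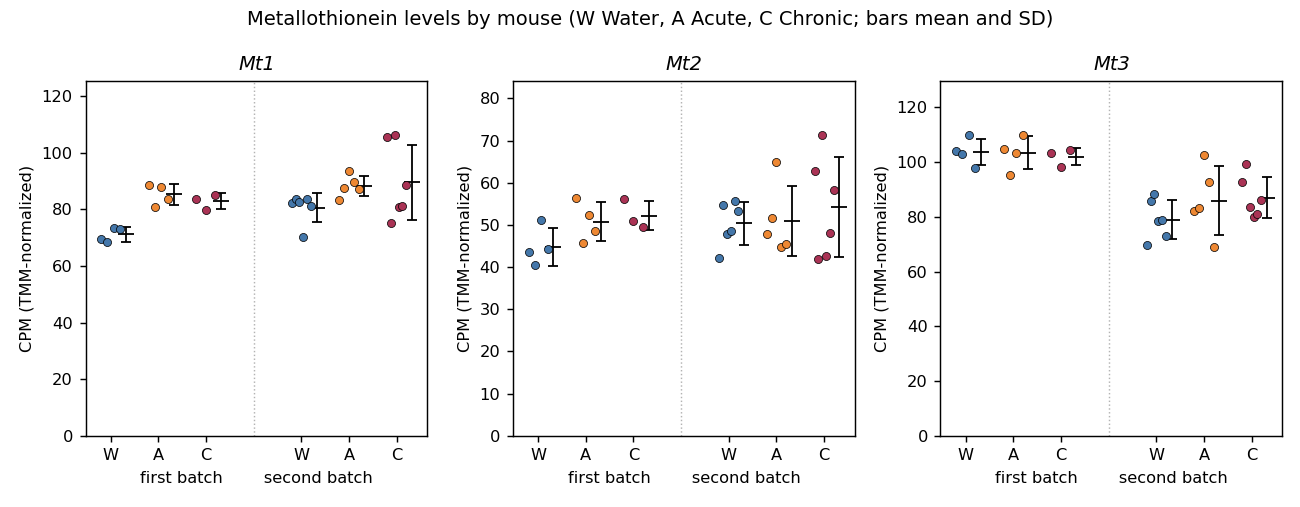
CPM of *Mt1*, *Mt2* and *Mt3* (vertical axes, from 0) for each mouse, by batch and drinking group, with the group mean ± SD. *Mt1* of the first batch lies at 68.3 to 73.3 CPM in Water mice and at 79.7 to 88.7 CPM in drinking mice, whereas the groups overlap for *Mt2* and *Mt3*.

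*Mt1* was called on the study's own route, which removes batch with ComBat-seq and tests with DESeq2. There it had log2 fold changes of 0.21 in Acute mice (adjusted p = 0.0164 by DESeq2) and 0.19 in Chronic mice (adjusted p = 0.0188 by DESeq2), on a route that called 0.184% of all genes in Acute and 0.54% in Chronic mice and none of the other 9 genes. DESeq2 with batch as a covariate gave 0.18 in both, with adjusted p-values of 0.104 and 0.0700. When the dependence of each library on the GC content and length of genes was removed, the log2 fold change of *Mt1* became 0.14 in Acute mice (edgeR unadjusted p = 0.0131) and 0.09 in Chronic mice (unadjusted p = 0.0868), the latter 50.9% of its value without that step. The first batch alone gave 0.26 and 0.22 (edgeR unadjusted p = 5.88e-05 and 0.000492), and the second alone 0.13 and 0.15 (unadjusted p = 0.104 and 0.054). A difference in the drinking effect between the batches was not detected for any of the 10 genes by the batch by group term, where the smallest unadjusted edgeR p of 20 tests was 0.147 and 0 passed the adjustment (0.0% of all genes in Acute and 0.00615% in Chronic mice). *Mt1* carries the description of matrix metallopeptidase 14 in the study's gene list, but *Mmp14*, the gene of a membrane-bound protease, had log2 fold changes of -0.01 and 0.02 (edgeR adjusted p = 0.966 and 0.946).

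**Figure D2:**
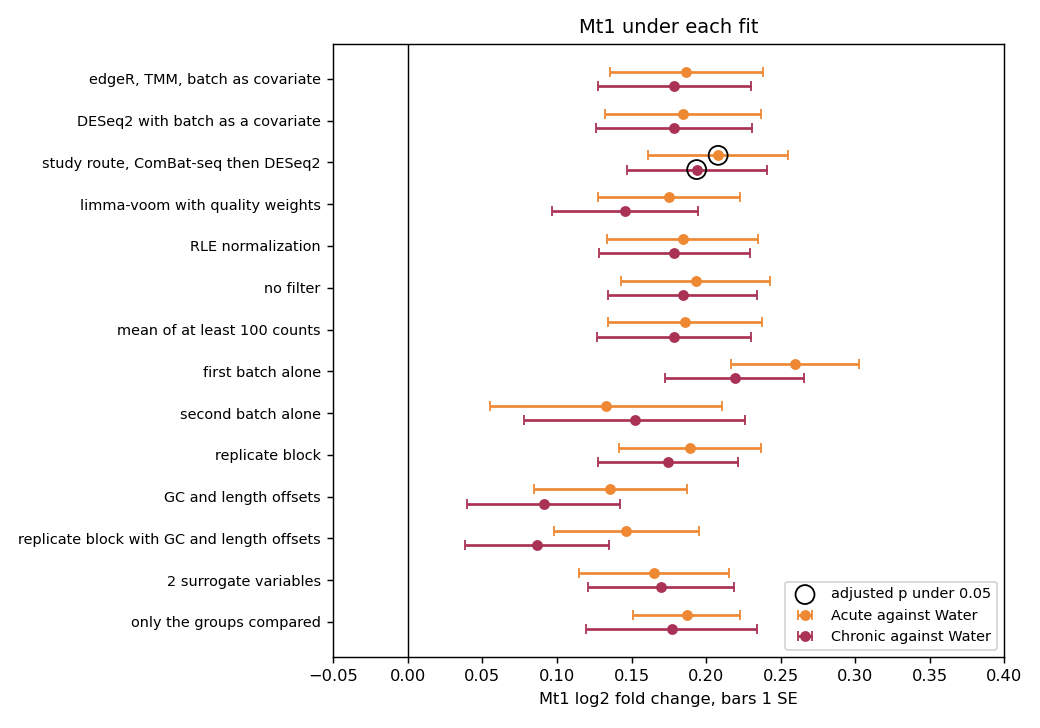
Log2 fold change of *Mt1* against Water (horizontal axis) ± 1 SE for Acute and Chronic mice under each way of processing (rows), with a ring around values whose adjusted p is under 0.05. All values lie above 0, the lowest at 0.09 in Chronic mice with the GC and length trends removed, and only the ComBat-seq and DESeq2 route has rings.

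*Mt2*, the neighbouring and similarly regulated metallothionein, lay higher on average in drinking mice, but its groups overlapped in both batches. In the first batch it measured 43.5, 40.5, 51.1 and 44.2 CPM in Water mice, 56.4, 45.8, 52.3 and 48.5 CPM in Acute mice and 56.1, 51.0 and 49.5 CPM in Chronic mice. In the second batch it ran from 42.1 to 55.7 CPM in Water mice (median 50.9), measured 47.9, 51.7, 65.0, 44.7 and 45.4 CPM in Acute mice and ran from 42.0 to 71.3 CPM in Chronic mice (median 53.1). In that batch the highest values were those of drinking mice, while the lowest Chronic and the lowest Water mouse were level. With batch means removed, 5 of 9 Acute and 6 of 9 Chronic mice lay above the mean of all Water mice. Acute mice had a log2 fold change of 0.09 for *Mt2* (95% interval -0.09 to 0.26, edgeR adjusted p = 0.787). The Chronic value was 0.15 (95% interval -0.03 to 0.32, edgeR adjusted p = 0.560). Removing the GC and length trends lowered these values to 0.03 and 0.07. Without Acute mouse 3 of the second batch the Acute value was 0.0359, and without Chronic mouse 3 of that batch the Chronic value was 0.0918.

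*Mt3*, the metallothionein of brain, differed more between the batches than between the groups. In the first batch it measured 97.9 to 109.8 CPM in Water mice (median 103.5), 95.3 to 109.8 CPM in Acute mice (median 104.1) and 98.4 to 104.4 CPM in Chronic mice (median 103.3). In the second batch it measured 69.6 to 88.5 CPM in Water mice (median 78.5), 69.0 to 103 CPM in Acute mice (median 83.1) and 79.9 to 99.3 CPM in Chronic mice (median 84.8). The groups overlapped in both batches. With batch means removed, 7 of 9 mice of each drinking group lay above the mean of all Water mice. The log2 fold change was 0.07 in Acute and 0.08 in Chronic mice (edgeR adjusted p = 0.720 and 0.662). In the first batch alone both values were at or below 0 (-0.0073 and -0.0245), and without the GC and length trends the Acute value was 0.0053 and the Chronic value -0.0308. Leaving out 1 mouse gave 0.0286 (Acute mouse 3 of the second batch) to 0.103 (Acute mouse 5) in Acute mice and 0.0517 (Chronic mouse 2) to 0.0947 in Chronic mice.

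*Mt1* and *Mt2* varied together from mouse to mouse. After the mean of each batch and group was removed from log2 CPM, their Pearson r over the 28 mice was 0.753 (permutation p = 0.00067, adjusted over 45 pairs of the 10 genes 0.0301) and Spearman's rho was 0.740 (permutation p = 0.00026, adjusted 0.0117). Without the 2 mice farthest from the *Mt1* median r was 0.622, and it was 0.744 within the first batch (n = 11) and 0.758 within the second (n = 17). This was the only pair of the 45 to pass the adjustment on r, and r over all pairs ran from -0.514 (*Nqo1* with *Sod2*) to 0.753 with a median of 0.098. *Mt3* had an r of 0.134 with *Mt1* (rho 0.355, 0.429 without the 2 farthest mice, 0.413 and 0.107 in the batches) and of 0.307 with *Mt2* (rho 0.302, 0.241 without the 2 farthest mice, 0.480 and 0.284 in the batches), and neither passed the adjustment. The transcripts of *Mt1* and *Mt2* share no run longer than 20 bases, those of *Mt1* and *Mt3* none longer than 27, and no pair shares a word of 31 bases. *Mt2* overlaps the antisense gene *Gm45774*, and since the strandedness of the libraries is not given in the sources used here, reads of the 2 genes may not be separable.

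**Figure D3:**
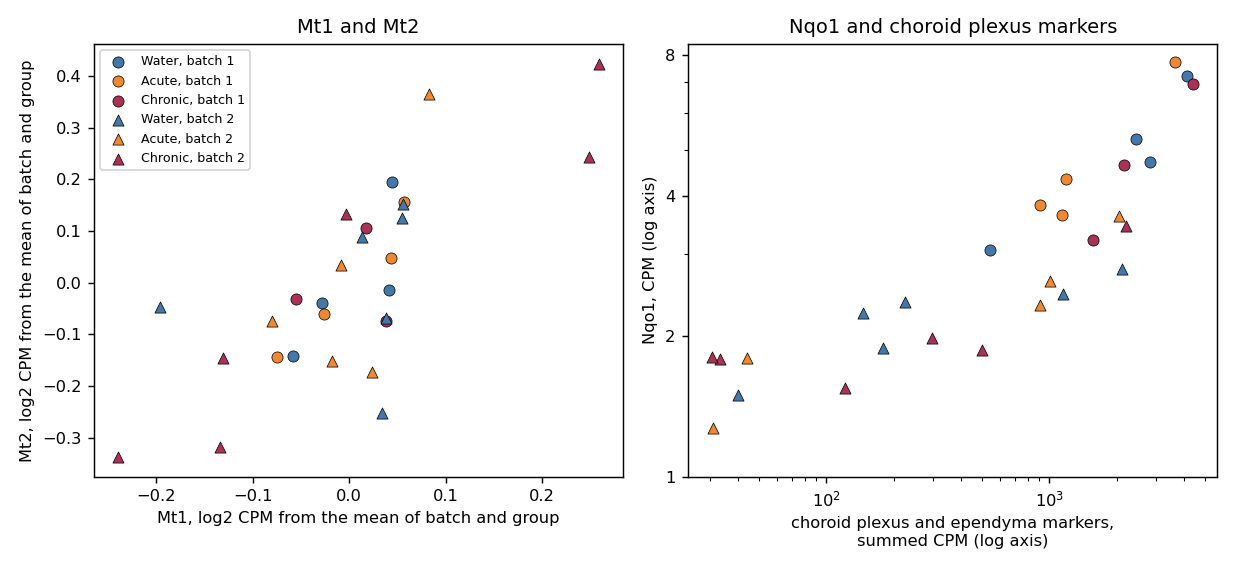
Left, log2 CPM of *Mt2* against that of *Mt1*, each as the deviation from the mean of the mouse's batch and group, for 28 mice (r = 0.753). Right, CPM of *Nqo1* against the summed CPM of choroid plexus and ependyma markers, both on log axes, where mice of the second batch (triangles) extend to lower values of both than those of the first (circles).

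The genes most like *Mt1* over mice, among 16265 searched, were *Mccc2* (r = 0.792), *Dcaf11* (0.782), *Slc27a1* (0.772), *Idh3g* (0.767) and *Psmd4* (0.754). In the first batch alone *Dcaf11* had an r of 0.618, while *Mccc2* had 0.10 and *Slc27a1* -0.062, so the likeness of these last rested on the second batch. The genes most like *Mt2* were *Acsf2* (r = 0.847), *Mt1* itself (0.753), *Hddc2* (0.746), *1110008L16Rik* (0.703) and *Scp2* (0.701). *Acsf2*, an acyl-CoA synthetase gene, had r of 0.835 in the first and 0.855 in the second batch. These values describe the likeness of variation and were picked as the highest, so no test is given.

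The inducible enzymes *Hmox1* and *Nqo1* were measured by few reads. *Hmox1* (chromosome 8, 75093621 to 75100589) had 53 to 120 counts per mouse. Its level was 2.86 to 4.39 CPM in Water mice (median 3.32), 2.72 to 4.41 CPM in Acute mice (median 3.59) and 2.73 to 5.29 CPM in Chronic mice (median 3.59), with overlap throughout. The log2 fold change was -0.03 in Acute mice (95% interval -0.26 to 0.19, edgeR adjusted p = 0.953) and 0.07 in Chronic mice (-0.15 to 0.30, adjusted p = 0.861). The Chronic value ran from 0.0058 without Chronic mouse 39 of the first batch to 0.118 without Water mouse 3 of the second. The data bound a change in *Hmox1* no more closely than these intervals. How far their width comes from the low counts or from the spread between mice was not tested.

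*Nqo1* (chromosome 8, 107388225 to 107403206, reverse strand) had 25 to 178 counts per mouse and was lower in the second batch, with overlap. In the first batch it measured 3.05 to 7.22 CPM in Water mice, 3.63 to 7.72 CPM in Acute mice and 3.22 to 6.92 CPM in Chronic mice. In the second it measured 1.5 to 2.79, 1.27 to 3.61 and 1.55 to 3.45 CPM. Groups overlapped within each batch, with log2 fold changes of 0.01 in Acute mice (0.009, 95% interval -0.39 to 0.41, edgeR adjusted p = 0.994) and -0.07 in Chronic mice (-0.48 to 0.33, adjusted p = 0.930). Between the batches *Nqo1* fell by 1.17 on the log2 scale from the first to the second, to 0.445 of its level (edgeR adjusted p = 7.47e-07).

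*Nqo1* also followed the markers of choroid plexus and ependyma over mice. With batch and group means removed its r with the mean log2 CPM of these markers was 0.786 and rho was 0.824 (permutation, adjusted p of r over 70 relations = 0.0007), r without the 2 farthest mice was 0.749, and r was 0.924 in the first and 0.840 in the second batch. All 10 markers were measured, and 3 of the 28 mice had a count of 0 for *Kcnj13* or *Otx2*, all in the second batch. Among the 12 mice of the second batch whose markers summed to at least 100 CPM (121 to 2203) r was 0.787, and the 5 mice below that (30.7 to 43.8 CPM) had 1.27 to 1.80 CPM of *Nqo1*. *Nqo1* had an r of 0.648 with the mean log2 CPM of the astrocyte markers as well (rho 0.614, permutation adjusted p of r = 0.0464), with 0.734 and 0.586 in the batches. The part of these cells in the batch difference of *Nqo1* was not tested.

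The subunits of glutamate-cysteine ligase lay at like levels in the 3 groups. *Gclc* (chromosome 9, 77754535 to 77794485) measured 58.3 to 70.4 CPM in Water mice (median 61.8), 56.4 to 69.2 CPM in Acute mice (median 62.7) and 58.3 to 66.9 CPM in Chronic mice (median 62.3). *Gclm* (chromosome 3, 122245557 to 122270732) measured 49.5 to 56.1 CPM in Water mice (median 51.6), 47.9 to 60.9 CPM in Acute mice (median 51.2) and 48.0 to 55.8 CPM in Chronic mice (median 50.8). The groups overlapped, and all 4 log2 fold changes against Water lay between -0.0125 and 0.0008, with the 95% interval of *Gclc* in Acute mice from -0.07 to 0.07 (edgeR adjusted p from 0.925 to 0.998). *Gclc* varied with the mean log2 CPM of oligodendrocyte markers over mice, with an r of 0.586 and a rho of 0.493 (permutation adjusted p of r = 0.0464), 0.505 without the 2 farthest mice, and 0.671 and 0.528 in the batches. The 9 of 10 oligodendrocyte markers that could be measured summed to 1276 to 2842 CPM in the first and to 2251 to 3295 CPM in the second batch. *Gclm* overlaps *Gm17494* and *Gm6061*, so reads of these may be shared.

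*Txnrd1*, which keeps thioredoxin reduced, measured 45.5 to 58.6 CPM in Water mice (median 50.6), 47.8 to 60.7 CPM in Acute mice (median 50.6) and 44.2 to 59.1 CPM in Chronic mice (median 51.4). It lies on chromosome 10 from 82833951 to 82897712 and overlaps *Eid3*, *Gm38560* and *Gm47073*. Its groups overlapped, with log2 fold changes of 0.04 and 0.02 (edgeR adjusted p = 0.819 and 0.937). Leaving out 1 mouse moved the Acute value to between 0.0154, without Acute mouse 4 of the second batch, and 0.0545.

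Of the superoxide dismutases, *Sod1* (chromosome 16, 90220754 to 90226329) measured 98.0 to 123 CPM in Water mice (median 111), 105 to 127 CPM in Acute mice (median 115.5) and 108 to 124 CPM in Chronic mice (median 115.7). It was above the Water mean of the batch in 8 of 9 Acute and 7 of 9 Chronic mice, though the ranges overlapped. The log2 fold change was 0.06 in both (95% interval -0.01 to 0.14 in Acute and -0.02 to 0.14 in Chronic mice, edgeR adjusted p = 0.595 and 0.604), 0.02 and 0.0008 without the GC and length trends, and -0.0166 in Chronic mice of the first batch alone. The Chronic value was 0.0385 without Water mouse 6 of the second batch. *Sod1* overlaps *Scaf4* on the opposite strand. *Sod2* (chromosome 17, 13006846 to 13040063) measured 161 to 187 CPM in Water mice (median 168), 157 to 191 CPM in Acute mice (median 168) and 150.2 to 181 CPM in Chronic mice (median 166). Its log2 fold changes were -0.004 and -0.02 (edgeR adjusted p = 0.978 and 0.786), and its groups overlapped in both batches.

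**Figure D4:**
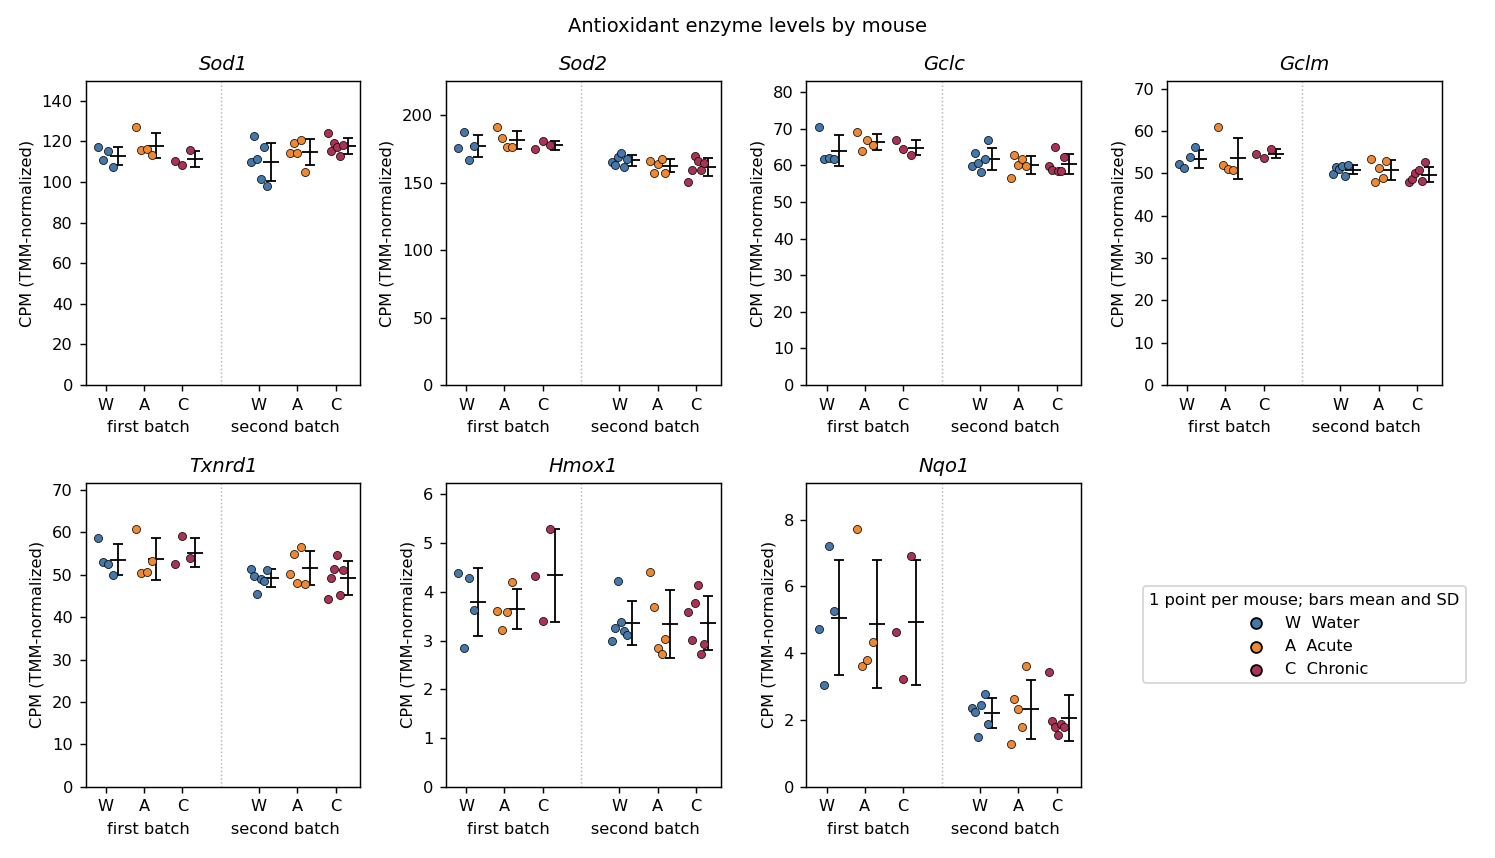
CPM of the 7 enzyme genes (vertical axes, from 0) for each mouse by batch and drinking group, with the group mean ± SD. Drinking groups overlap within each batch for every enzyme, and *Nqo1* lies at 3.05 to 7.72 CPM in the first batch and at 1.27 to 3.61 CPM in the second.

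**Figure D5:**
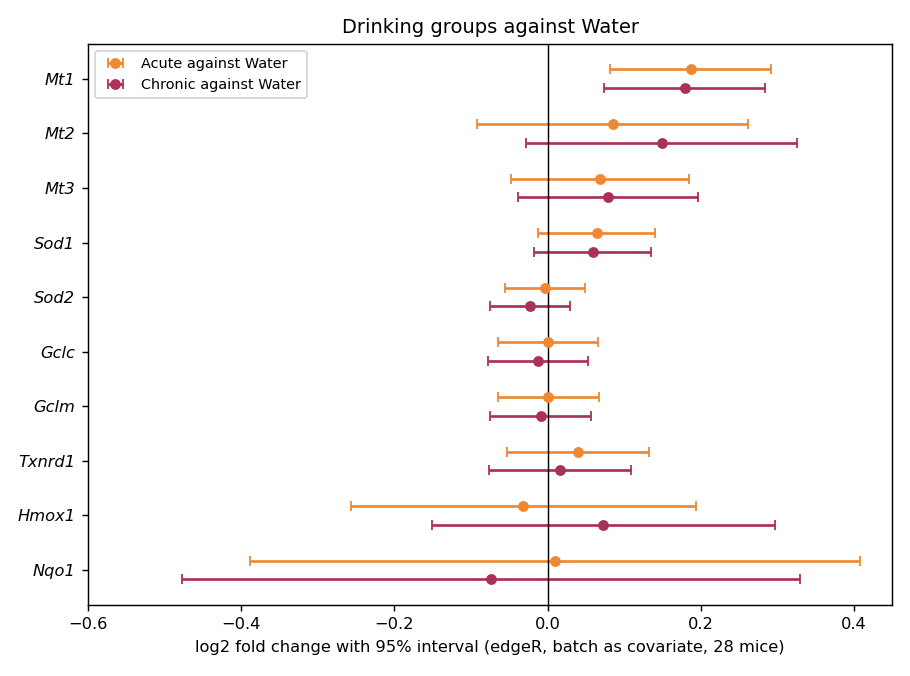
Log2 fold change against Water (horizontal axis) with its 95% interval for the 10 genes (rows) in Acute and Chronic mice, from edgeR over 28 mice. The intervals of *Mt1* lie above 0 before adjustment for the number of genes tested, and those of the other 9 genes include 0.

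Batch was the larger difference for most of the 10 genes, as 24.3% of all genes tested were lower and 22.0% higher in the second batch at an adjusted p under 0.05. From the first to the second batch, *Nqo1*, *Mt3* (log2 fold change -0.30, adjusted p = 7.77e-06), *Sod2* (-0.13, 1.79e-05), *Gclc* (-0.10, 0.00415), *Txnrd1* (-0.11, 0.0157) and *Gclm* (-0.09, 0.00596) fell in edgeR's test. *Mt1* rose (0.12, edgeR adjusted p = 0.0312). *Hmox1* (-0.22, edgeR adjusted p = 0.0513), *Mt2* (0.08, 0.398) and *Sod1* (-0.002, 0.966) did not pass. Batch here is the cohort of mice with its own count table, and since the tables use identifiers of different annotation releases in part, mice and tables cannot be told apart.

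Cell type markers were set beside *Mt1*, which astrocytes express strongly. The 10 astrocyte markers summed to 3764 to 4073 CPM in Water, 3915 to 4004 CPM in Acute and 3783 to 3909 CPM in Chronic mice of the first batch, and to 3588 to 4022, 3611 to 3954 and 3606 to 3828 CPM in the second, so that the groups overlapped. The microglia markers did not overlap in the first batch, with a sum of 356 to 384 CPM in Water and 388 to 394 CPM in Acute mice, where *Mt1* did not overlap either, and their part in the difference of *Mt1* was not tested. They overlapped in the second batch (358 to 416 CPM in Water and 379 to 411 CPM in Acute mice), and no other of the 7 marker lists lay apart from Water in either batch. Over the 28 mice r of *Mt1* with the mean log2 CPM of the microglia markers was 0.318, with -0.197 and 0.397 within the batches. For the astrocyte markers r of *Mt1* was 0.210 and that of *Mt2* was 0.198, and no r of *Mt1* with any of 7 marker lists exceeded 0.345 in size (permutation adjusted p of at least 0.586).

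The wider pathways were described from 8 lists with 102 genes, of which 95 were tested. None was called in either comparison with Water by edgeR. At an unadjusted p below 0.05, 12 of the 95 (12.6%) were higher and 1 (1.05%) was lower in Acute mice, and 10 (10.5%) were higher and 1 (1.05%) was lower in Chronic mice, beside the 5.07% and 4.81% of all genes given above as higher. The median log2 fold change of the 95 genes was 0.02 in both, against 0.00 for all genes. With the GC and length trends removed, 9 were higher and 1 lower in Acute mice and 6 higher and 2 lower in Chronic mice, where 4.05% and 2.76% of all genes were higher and 2.93% and 3.13% lower. Genes of a list are not independent of each other, and the lists were put to no test.

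Among 18 other NRF2 targets, 4 were higher and none lower with an unadjusted p below 0.05 in each comparison with Water (5.07% of all genes were higher and 4.45% lower in Acute mice, 4.81% and 5.65% in Chronic mice). *Srxn1*, the sulfiredoxin gene that repairs overoxidized peroxiredoxins, which the study also picked from these mice, led in Acute mice with a log2 fold change of 0.14 (adjusted p = 0.200 by edgeR, 9 of 9 mice above the Water mean), and had 0.10 in Chronic mice (adjusted p = 0.260, 9 of 9). On the ComBat-seq and DESeq2 route *Srxn1* was the one gene of the pathway lists to be called, in Acute mice (adjusted p = 0.0392 by DESeq2). The pentose phosphate gene *Pgd* was next in Acute mice with 0.10, and *Tkt* came before *Srxn1* in Chronic mice with 0.12 (edgeR adjusted p = 0.462 and 0.241). Of 10 genes that regulate NRF2, 1 was higher in Acute and 2 in Chronic mice with an unadjusted p below 0.05, and 0 in both with the GC and length trends removed. *Sqstm1*, which takes KEAP1 away for degradation, had 0.06 and 0.07 (edgeR adjusted p = 0.501 and 0.355), and *Keap1* itself 0.05 and 0.07 (adjusted p = 0.637 and 0.415).

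Of 23 other glutathione genes, 4 were higher in Acute and 3 in Chronic mice with an unadjusted p below 0.05 and none was lower, beside the 5.07% and 4.81% of all genes that were higher. With the GC and length trends removed, 2 and 1 were higher, and the median log2 fold change of the 23 genes was 0.02 and 0.03 in place of 0.05 and 0.06. *Mgst3*, a membrane-bound glutathione transferase, had log2 fold changes of 0.15 and 0.16 (edgeR adjusted p = 0.474 and 0.339), and the mitochondrial glutaredoxin *Glrx5* had 0.10 in both (adjusted p = 0.493 and 0.427). Of 15 thioredoxin and peroxiredoxin genes, 2 were higher in Acute mice, *Srxn1*, which is on both lists, and the peroxidase gene *Prdx1* (0.09, adjusted p = 0.502), and 1 in Chronic mice, *Srxn1*, before *Selenow* with 0.09 (adjusted p = 0.638). Extracellular superoxide dismutase *Sod3* had 0.07 and 0.11 and catalase *Cat* -0.03 in both, with edgeR adjusted p-values from 0.755 to 0.908.

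Of 18 zinc and metal handling genes, 1 was higher in Acute mice with an unadjusted p below 0.05, and 1 was higher and 1 lower in Chronic mice, a share of 18 genes near that of all genes (5.07% higher in Acute mice, 4.81% higher and 5.65% lower in Chronic mice). The zinc importer gene *Slc39a7* had 0.17 in Acute mice (edgeR adjusted p = 0.445, 9 of 9 mice above the Water mean), although its Water level was 8.85 CPM in the first and 61.9 CPM in the second batch. The copper transporter gene *Atp7a* had -0.30 in Acute mice (adjusted p = 0.562), the zinc exporter gene *Slc30a4* -0.09 in Chronic mice (adjusted p = 0.362) and the copper chaperone gene *Atox1* 0.15 in Chronic mice (adjusted p = 0.421). Of 8 heme and iron genes, none passed an unadjusted p below 0.05 in Acute mice, where *Alas1* had 0.05 and *Hmox2* 0.04, and 2 were higher in Chronic mice, biliverdin reductase *Blvrb* (0.17, adjusted p = 0.443) and ferritin light chain *Ftl1* (0.09, adjusted p = 0.449).

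Glucocorticoid-responsive genes were listed because glucocorticoids induce *Mt1* and *Mt2*. Of 9 tested, 2 were higher and 1 was lower in Acute mice with an unadjusted p below 0.05, and none in Chronic mice, beside 5.07% and 4.45% of all genes in Acute and 4.81% and 5.65% in Chronic mice. The median log2 fold change of the 9 genes was 0.12 in Acute mice (6 above 0) and -0.03 in Chronic mice (3 above 0), against 0.00 for all genes. *Cdkn1a* had 0.22 in Acute mice (edgeR adjusted p = 0.430, 9 of 9 mice above the Water mean). *Per1* had -0.14 in Acute mice (adjusted p = 0.457, 0 of 9 mice above the Water mean) and -0.11 in Chronic mice (adjusted p = 0.478), and *Tsc22d3* had 0.09 in Chronic mice (adjusted p = 0.635).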

How the data were processed

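The authors quantified paired-end reads with Salmon 0.14.1, after FastQC 0.11.8, against a GRCm38 (mm10) transcriptome, used tximport to sum them per gene and deposited whole-number counts, 1 table per batch, before batch adjustment. No column of another sample had to be left out.

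Tables were joined on the gene identifier, and those whose counts averaged at least 10 over the mice were kept. Groups were compared in R 4.3.3 with edgeR 4.0.16 (quasi-likelihood test, TMM, batch as a covariate, all 28 mice, Benjamini-Hochberg over all genes kept, threshold 0.05). Each library came from 1 mouse. Alternatives (normalization, filter, batch handling, single batches, a replicate block, GC and length offsets, surrogate variables, single mice left out) used DESeq2 1.42.0, limma 3.58.1 and sva 3.50.0. Single genes had exact permutation tests within batches, and correlations 100000 permutations within batch and group, on log2 CPM (prior count 2). The edgeR test of Acute against Water was also run on simulated counts with a known set of changed genes. No pair of libraries of a group agreed within sampling noise.

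The 10 genes and all lists were chosen with earlier results of these data known. Of the lists, genes called by edgeR or on the ComBat-seq and DESeq2 route were named, and the 2 smallest edgeR p-values per list and comparison with Water, besides the 5 genes most like *Mt1* and *Mt2*, and *Mmp14*. A marker gene that this rule would name is not reported here. Transcript lengths and positions came from GENCODE M21, promoters from RefSeq. The counts per mouse set the counting error, which is widest for *Hmox1* and *Nqo1*.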

Additional observations from a re-analysis of the deposited data

Results flagged for a closer look

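Of 30 groups tested, 1 held a mouse that stood apart. *Sod2* in Chronic mouse 1 of the second batch measured 150.2 CPM, the lowest of its group, and its gap to the next of the 9 Chronic mice was 0.496 of the group's range on log2 CPM with batch means removed, against a critical value of 0.493. Chance flags about 1 in 20 groups, and the cause was not tested.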

How the results depend on the processing

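No alternative turned the direction of *Mt1* against Water. Of the other ways of processing, leaving out single mice aside, 335 values kept their direction and side of the threshold, 42 reversed, and 12 counts or calls moved. The cause of each was not tested, and where values lie this close to 0 a sign carries little.

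After ComBat-seq and DESeq2, 1 gene of the 10 (*Mt1*) was called in Acute and 1 in Chronic mice against 0 in the main test, 2 (*Mt1* and *Mt2*) had an unadjusted p under 0.05 in Chronic mice, and 1 pathway gene (*Srxn1*) was called in Acute mice. The number at an unadjusted p under 0.05, which was 1 in each comparison with Water, became 2 in the first batch alone (*Mt1* and *Mt2*) and 0 in the second batch alone for both, and 0 in Chronic mice with GC and length offsets, with or without the replicate block. Leaving out 1 mouse gave 1 to 2 in both comparisons and 0 called. In Acute mice it was 2 without Acute mouse 5 or Water mouse 2 of the second batch, which added *Sod1*. In Chronic mice it was 2 without Chronic mouse 2 or 4 of that batch, which added *Mt2*, or without Water mouse 2, which added *Sod1*. The r of *Mt1* with *Mt2* ran from 0.673 to 0.808.

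Reversed log2 fold changes in Acute mice were, for *Mt3*, -0.0073 in the first batch, for *Nqo1*, -0.069 with limma-voom, -0.0582 in the first batch, -0.0136 with the block, -0.0152 with the offsets and -0.0378 with both, and for *Gclc*, -0.0013 with DESeq2, -0.0072 after ComBat-seq, -0.0146 with limma-voom, -0.0021 with RLE, -0.00081 at a mean of at least 100 counts, -0.0385 in the second batch and -0.0255 with 2 surrogate variables. *Gclm* had -0.0016, -0.0029, -0.0126, -0.0018, -7.8e-05, -0.0011 and -0.0038 under the same settings as *Gclc*, and *Sod2* had 0.0029 with no filter, 0.0368 in the first batch, 0.0412 with the offsets and 0.0413 with block and offsets. In Chronic mice, values in the first batch, with the offsets and with block and offsets were -0.0245, -0.0308 and -0.0286 for *Mt3*, 0.0166, 0.0015 and 0.0015 for *Gclc*, 0.0337, 0.0482 and 0.0479 for *Gclm*, and 0.0055, 0.0366 and 0.0363 for *Sod2*, and *Sod1* had -0.0166 in the first batch. Chronic against Acute, *Mt1* had 0.0196 in the second batch and 0.0048 with 2 surrogate variables, and *Mt3* had -0.0172, -0.0361 and -0.0351 in the first batch, with the offsets and with both.

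Leaving out 1 mouse turned a sign in some fits, with ranges in Acute mice of -0.0111 to 0.0157 for *Gclc*, -0.0236 to 0.0116 for *Gclm*, -0.10 to 0.0113 for *Hmox1*, -0.115 to 0.105 for *Nqo1* and -0.0165 to 0.0042 for *Sod2*, in Chronic mice of -0.026 to 0.00398 for *Gclc*, -0.193 to 0.0155 for *Nqo1* and -0.0036 to 0.0358 for *Txnrd1*, and Chronic against Acute of -0.0407 to 0.0233 for *Mt1* and -0.0259 to 0.0522 for *Mt3*. No sign turned for *Mt1* (0.169 to 0.201 in Acute and 0.145 to 0.209 in Chronic mice), for *Gclm* (-0.0179 to -0.0013) and *Sod2* (-0.0351 to -0.0108) in Chronic mice, or for *Sod1* in Acute mice (0.0452 to 0.0821).

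Replicate numbers did not pair the mice: over 16 pairs of the second batch that share a number, r of their deviations ran from -0.346 to 0.338 with a median of -0.008, and 1 of 17 mice correlated best with its own number. With the replicate block *Mt1* had 0.19 in Acute and 0.17 in Chronic mice (edgeR adjusted p = 0.327 and 0.221) and none of the 10 genes was called. A filter at a mean of 100 counts left no value for *Hmox1* and *Nqo1*, whose low counts also limit their precision.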

Other observations

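Markers of cell types were measured on the same fits, and none of their genes was called by edgeR. At an unadjusted p under 0.05, 5.07% of all genes were higher and 4.45% lower in Acute mice and 4.81% and 5.65% in Chronic mice. Of the 10 astrocyte markers 4 had a log2 fold change above 0 in Acute and 5 in Chronic mice (medians -0.004 and 0.008), and 3 were higher in Acute mice before adjustment (p below 0.05) (*Fgfr3* with a log2 fold change of 0.10 and *Aldh1l1* with 0.14 had the smallest p), and 2 were higher and 1 lower in Chronic mice (*Atp1b2* and *Fgfr3* with 0.07 and 0.08). Of the 10 neuron markers 7 lay above 0 in each comparison (medians 0.04 and 0.03), and 3 were higher in Acute and 1 in Chronic mice, with 0.08 for *Tubb3* in both, 0.18 for *Gad1* in Acute and 0.08 for *Stmn2* in Chronic mice. Of the 10 microglia markers 5 and 2 lay above 0 (medians -0.0002 and -0.03), and 1 was higher in Acute mice, *Csf1r* with 0.07. The microglial receptor gene *Fcrls* was lower in Chronic mice with -0.14, before *P2ry12* with -0.07.

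Of the 10 endothelial markers 6 lay above 0 in each comparison (medians 0.01 and 0.02), and *Ly6c1* was higher in Acute mice with 0.12, before *Flt1* with -0.05, and *Ly6c1* and *Cldn5* were higher in Chronic mice, each with 0.13. In the main test no oligodendrocyte, choroid plexus or ependyma marker passed an unadjusted p under 0.05. Of 9 oligodendrocyte markers 8 and 7 lay above 0 (medians 0.12 and 0.05), but after ComBat-seq and DESeq2 7 and 4 did (medians 0.09 and -0.009). Their summed level had medians of 1658, 1846 and 2021 CPM in Water, Acute and Chronic mice of the first batch and of 2754, 2577 and 2555 CPM in those of the second, in opposite order. Of 10 choroid plexus and ependyma markers 1 and 0 lay above 0 (medians -0.11 and -0.14). *Cldn11* had 0.19 and *Mog* 0.21 in Acute mice and *Cnp* 0.11 and *Mog* 0.13 in Chronic mice, while *Ccdc153* had -0.44 and -0.14 and *Foxj1* -0.17 and -0.15. Of 10 amygdala markers 9 lay above 0 in each comparison (medians 0.20 and 0.06), and 2 were higher in Acute and none in Chronic mice. The neuropeptide gene *Nts*, which the study picked from these mice, had 0.55 in Acute mice (edgeR adjusted p = 0.194, and 0.0232 by DESeq2 after ComBat-seq) and 0.24 in Chronic mice, where *Sst* had 0.08.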
